A study of Rattus norvegicus with 40 samples.

Results

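The proteasome genes were taken from the gene symbols of the array annotation, as every symbol that starts with Psma to Psmg followed by a number. Of the 14217 genes that had a probe set with 1 symbol, 46 met this rule, with 60 probe sets in all. Each gene was read from its brightest probe set over the 40 arrays (9 genes had several), and all 46 passed the filter on dim probe sets. They comprised 16 genes of the core particle (Psma1 to Psma7 and 9 Psmb genes) and 23 of the regulatory particles and activators (Psmc1 to Psmc6, Psmd1 to Psmd14, Psme1, Psme2 and Psme4). Another 5 encode an inhibitor or assembly chaperones (Psmf1, Psmg1 to Psmg4). The last 2, Psmc3ip and Psme3ip1, encode proteins that are not subunits and met the rule by their symbol only. A further 6 probe sets, among them those annotated to Psmb6 and Psme3, carried several symbols and were not analysed here.

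The cells were neonatal rat ventricular myocytes (NRVMs), a primary culture of heart muscle cells from newborn rats, placed under coverslip hypoxia, in which a glass coverslip limits the oxygen and medium that reach the cells beneath it. One arm was labelled ischemia and the other ischemia+reperfusion, and each was sampled at 0, 10, 30, 60 and 120 min. Each of the 10 groups had 4 arrays, which were duplicate samples of 2 preparations of cells. The labels give neither a strain nor an age, and do not say which step of the reperfusion protocol the minutes count. They do not say whether duplicates were separate cultures, so duplicates were averaged before the tests. The p-values measure how far the averages of the 2 preparations disagree on the differences between groups, a spread that may be technical.

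The 26S proteasome degrades proteins that carry ubiquitin chains. Its core particle is a stack of alpha and beta rings with the protease sites inside. The regulatory particle has a base, whose ring of ATPases (Psmc genes) unfolds substrates, and a lid, which removes ubiquitin. In the heart it turns over sarcomere and signalling proteins, and its activity is known to be reduced by ischemia. Interferon replaces 3 catalytic beta subunits by the immunoproteasome subunits Psmb8, Psmb9 and Psmb10. Nrf1 and Nrf2, transcription factors encoded by Nfe2l1 and Nfe2l2, raise proteasome genes together through antioxidant response elements.

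Promoter sequence was available from RefSeq (rat build GRCr8) for 42 of the 46 genes. The 250 bases before each annotated start were searched on both strands for 4 motifs. These were the antioxidant response element core TGACNNNGC, the NF-Y box CCAAT, the interferon response element core GAAANNGAA and the STAT site TTCNNNGAA. The NF-Y box stood in 10 of 15 core promoters (66.7%), in 7 of 20 regulatory promoters (35%), and in 34% of all 33469 promoters. The antioxidant response element core stood in 3 of 15 core promoters (20%), 3 of 20 regulatory promoters (15%) and 10.1% of all promoters. Its holders were Psma3, Psmb2, Psmb5, Psmd1, Psmd9 and Psme4. The interferon element core was found in 7 of the 42 promoters (16.7%), against 8.12% of all promoters, and the STAT site in 4 of 42 (9.52%), against 7.67%. These matches describe the letters in the window and show no binding.

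For 5 genes the 150 bases before the start are printed here. Psmc5 and Psmd5 are shown because the array results turn on them, Psmb2 and Psmb5 because they hold the antioxidant response element core, and Psmb10 because it holds the interferon element core. Capitals mark TGACNNNGC and CCAAT on either strand (CCAAT reads ATTGG on the other) and, in Psmb10, GAAANNGAA. Psmc5 (chr10:91687403-91687552, plus strand) and Psmd5 (chr3:38548491-38548640, minus strand) held none of the 4 motifs in their 250 bases. In Psmb2 (chr5:144254908-144255057, plus strand) the NF-Y box starts 72 bases and the antioxidant response element core 68 bases before the start, and they share 1 base. In Psmb5 (chr15:32047380-32047529, minus strand) the antioxidant response element core starts 60 bases before the start. Psmb10 (chr19:50743293-50743442, minus strand) had 3 interferon element cores, 73, 67 and 17 bases before the start, the first 2 of which overlap.
Psmc5: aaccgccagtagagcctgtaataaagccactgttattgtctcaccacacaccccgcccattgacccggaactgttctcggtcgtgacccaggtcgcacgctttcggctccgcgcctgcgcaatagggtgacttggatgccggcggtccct
Psmd5: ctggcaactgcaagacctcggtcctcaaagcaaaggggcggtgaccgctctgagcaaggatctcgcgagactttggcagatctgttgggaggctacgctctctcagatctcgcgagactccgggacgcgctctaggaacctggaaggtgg
Psmb2: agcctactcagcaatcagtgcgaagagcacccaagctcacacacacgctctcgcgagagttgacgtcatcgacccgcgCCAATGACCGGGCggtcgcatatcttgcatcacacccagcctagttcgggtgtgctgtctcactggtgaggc
Psmb5: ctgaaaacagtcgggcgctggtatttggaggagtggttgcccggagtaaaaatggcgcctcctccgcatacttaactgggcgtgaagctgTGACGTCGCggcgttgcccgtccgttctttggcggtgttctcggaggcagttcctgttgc
Psmb10: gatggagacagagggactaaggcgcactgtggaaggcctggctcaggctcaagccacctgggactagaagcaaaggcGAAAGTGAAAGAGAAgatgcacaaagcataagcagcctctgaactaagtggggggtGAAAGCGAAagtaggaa

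Few proteasome genes passed the test in any comparison, and the changes of those that did were small. Values are log2 of the normalized intensity plus 16, changes are differences of these with their standard error (SE), and a call is an adjusted p under 0.05 from limma over the 18625 probe sets tested. Against 0 min, 3 of 46 genes were called at 120 min of ischemia (6.52%), where 12.9% of all probe sets were called. They were Psmc5 and Psma3, which fell (6.48% of all probe sets fell), and Psmd10, which rose (6.45% rose). At 120 min of ischemia+reperfusion 1 of 46 was called (2.17%), against 7.17% of all probe sets, and at 60 min 1 of 46, against 4.69%. Both calls were Psmc5, lower. Because the myocytes were measured in bulk, fewer cells of a type and less RNA per cell cannot be told apart.

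No proteasome gene was called by limma against 0 min at the other times. Of all probe sets, 1.98% were called at 10 min, 0.0966% at 30 min and 0.129% at 60 min of ischemia. In the ischemia+reperfusion arm 0.0376% were called at 10 min and 0.784% at 30 min. At an unadjusted p under 0.05 the ischemia arm had 17, 4 and 7 members (37%, 8.70% and 15.2%), against 22%, 15.6% and 15.8% of all probe sets. The other arm had 6 and 9 (13% and 19.6%), against 11.3% and 14.8%. The 4 comparisons of an arm share its 0 min arrays. Moderated F tests over the 4 times called 0 of 46 in either arm, where 4.57% (ischemia) and 3.61% (ischemia+reperfusion) of all probe sets were called. Psmc5 had the lowest adjusted p of the members in both, 0.057 and 0.066 from limma. An unadjusted p under 0.05 was found for 7 and 5 members (15.2% and 10.9%), against 26.5% and 24.3% of all probe sets.

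The proteasome genes were bright and their changes were measured more closely than those of most probe sets. Their mean values ran from 7.41 to 12.61, with 43 of 46 above the median of all probe sets tested (8.77). The SE of a change had a median of 0.065 over the members, from 0.047 to 0.322, against 0.118 over all probe sets tested. At 120 min the 95% interval of the change lay within 0.5 log2 units of 0 for 42 of 46 genes in ischemia and 44 of 46 in ischemia+reperfusion. Of all probe sets tested, 56.8% and 60.7% met this. A change of 0.5 log2 units is a ratio of 1.41.

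**Figure D1:**
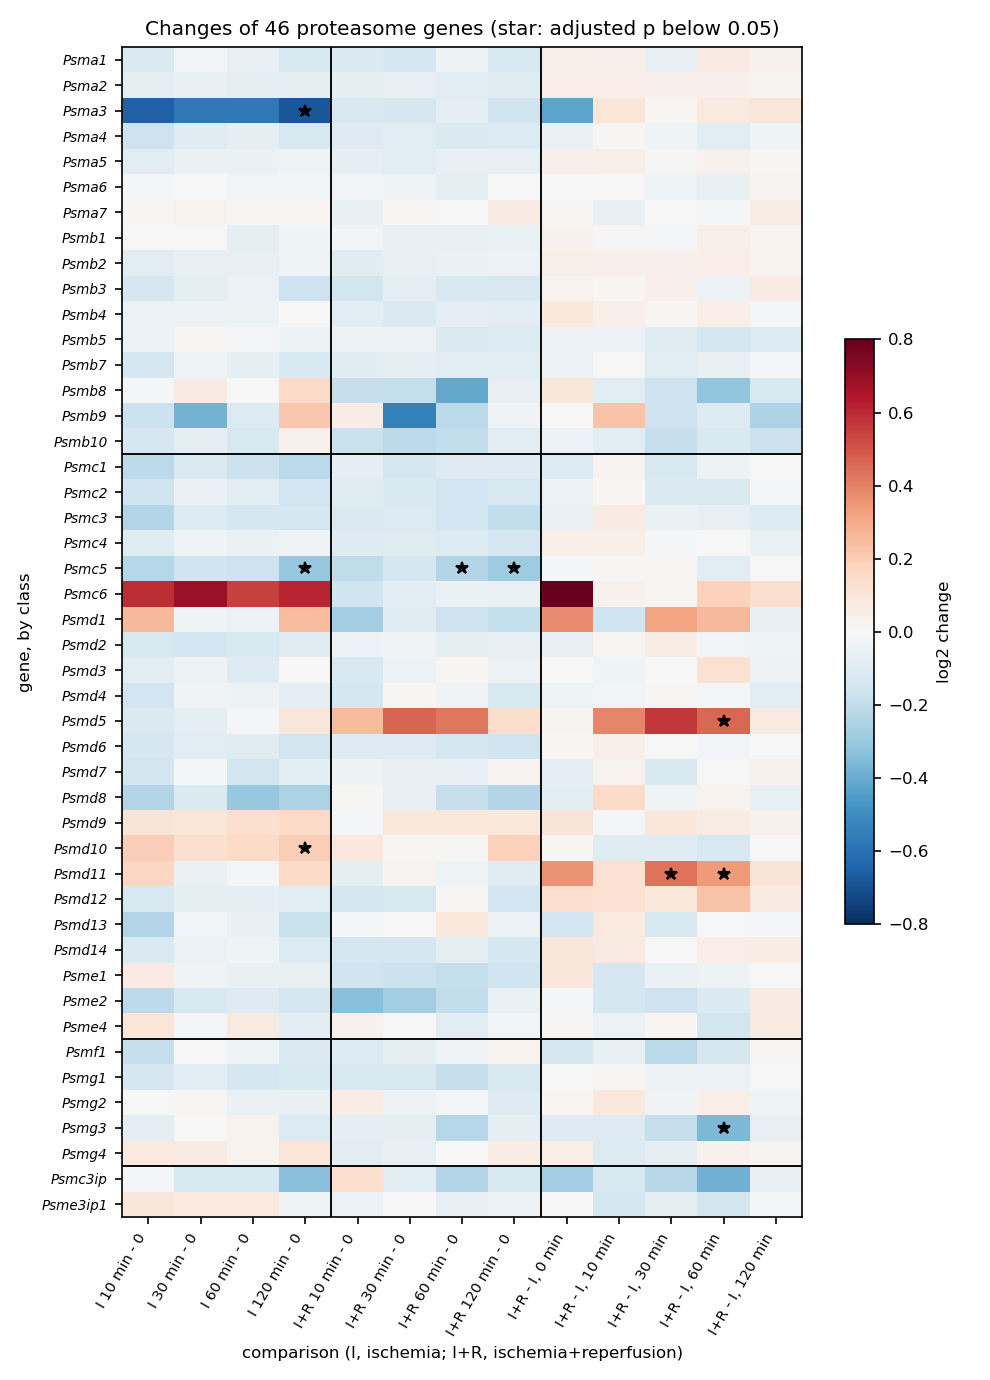
Log2 change of each of the 46 proteasome genes (rows, by class: core, regulatory, inhibitor or assembly, and non-subunits) in the 13 comparisons (columns). Blue is lower, red is higher, and stars mark the 9 calls; apart from Psmc6 and Psma3, whose strong colours in the ischemia arm turn on 1 array, core and regulatory genes in the columns against 0 min are mostly pale blue.

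Core and regulatory genes both lay slightly lower after 0 min. Each gene's deviation from its mean over the 40 arrays was taken, and its median over a class was computed for each array. In the ischemia arm the 0 min arrays had core medians of 0.01 to 0.06 and regulatory medians of 0.02 to 0.12. In the other arm they had 0.05 to 0.08 and 0.04 to 0.10. All 8 arrays at 0 min were thus above 0 in both classes. Of the 32 later arrays, 10 were above 0 in the core class and 12 in the regulatory class. The same median over all probe sets tested ran from -2.9e-06 to 0.022 on the 0 min arrays. On the later arrays it ran from -0.0059 to 0.016. On replicate 4 of ischemia 0 min the core median (0.013) was below that of all probe sets (0.017). The later groups differed. At 30 min of ischemia 3 of 4 arrays were above 0 in the core class and 4 of 4 in the regulatory class. At 10 min of ischemia 0 of 4 were above 0 in each class. The classes lay on the same side of 0 in 32 of 40 arrays.

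As changes against 0 min, the core median ran from -0.09 to -0.03 and the regulatory median from -0.13 to -0.05 over the 8 comparisons. The median over all probe sets tested ran from -0.02 to 0.00. Relative to that median, both classes were lower in 8 of 8 comparisons after quantile normalization. On the deposited scale, or with each array centred on its median, the regulatory class was lower in 8 of 8. The core class was lower in 7 of 8. At 30 and 60 min of ischemia it differed from the median of all probe sets by only 0.0005 and -0.002. On the deposited scale the median of all probe sets moved to between -0.23 and 0.10, so that both class medians were positive at 10 min of ischemia+reperfusion (0.02 in each), below the 0.10 of all probe sets. No test was made over the members.

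**Figure D2:**
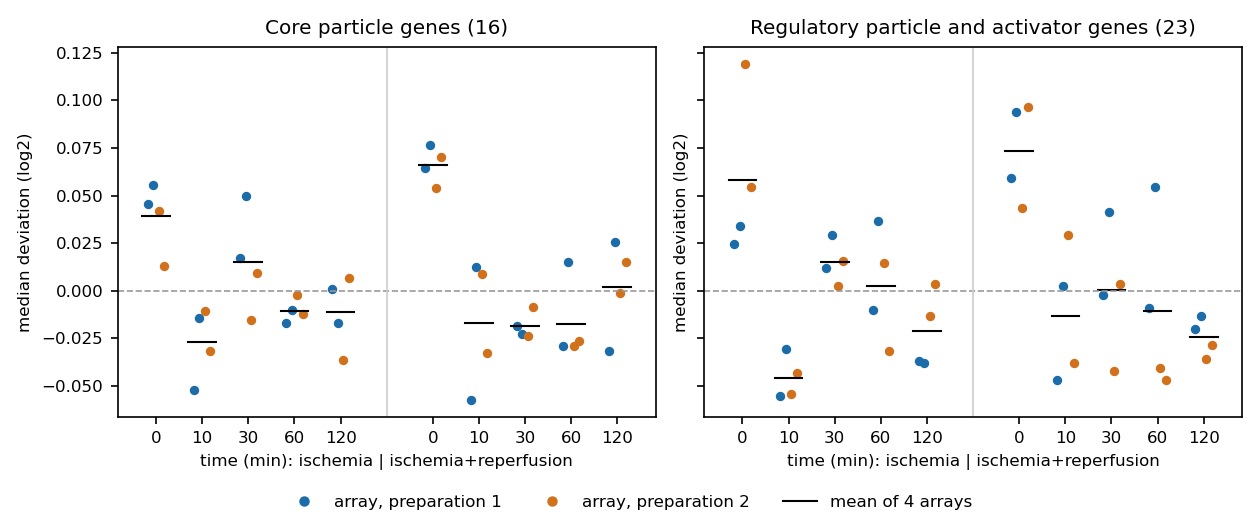
Median deviation of the core genes (left) and the regulatory genes (right) from their own means, in log2 units, for each array against labelled time in both arms. Points are arrays coloured by preparation and short lines are means of 4 arrays; the 0 min arrays of both arms lie above 0 in both panels, the core ones at 0.01 to 0.08.

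Among the alpha subunits (Psma1 to Psma7), which form the outer rings and the gate of the core, 6 of 7 were lower than 0 min at 120 min of ischemia and 5 of 7 at 120 min of ischemia+reperfusion. Psma3 was called in the first of these, and no other alpha subunit in any comparison. Its 0 min ischemia arrays read 12.42, 10.58, 10.69 and 10.61, and its 120 min arrays 10.57, 10.33, 10.39 and 10.29. The groups do not overlap, but the first 0 min array stands far above the others. The change was -0.68 ± 0.19 (SE; limma, adjusted p = 0.042). Without that array it was -0.22 (limma, adjusted p = 0.074), and the call was also lost on leaving out any 1 of 3 other arrays (ischemia 0 min replicate 2, ischemia 120 min replicate 2, ischemia+reperfusion 10 min replicate 4). In the ischemia+reperfusion arm the 0 min arrays of Psma3 read 10.66, 10.74, 10.61 and 10.58 and its changes were -0.16 to -0.07.

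The correlation of the same 0 min array with the rest had a median of 0.872, where the other arrays had 0.960 to 0.979. It also set the values of Psmc6, an ATPase of the base. That gene read 8.50 on it and 11.60, 11.64 and 11.35 on the other 0 min ischemia arrays. With it, the fitted changes of Psmc6 in ischemia were 0.55 to 0.69 (none called). Without it they were -0.23 to -0.08. A second probe set of Psmc6 read 11.35, 11.10, 11.11 and 11.16 at 0 min and 10.54, 10.92, 10.56 and 10.90 at 120 min of ischemia, a change of -0.45 (limma, adjusted p = 0.015). At 120 min the first duplicate of each preparation was the low one. Duplicates were averaged before the test, so that their spread does not enter this p-value. The third, dim probe set read 10.71, 8.70, 8.41 and 8.45 at 0 min and 8.61, 8.58, 8.402 and 8.55 at 120 min, so that its change of -0.53 (limma, adjusted p = 0.16) also turns on the outlying array.

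The constitutive catalytic subunits measured here were Psmb5, the chymotrypsin-like site, and Psmb7, the trypsin-like site. Psmb5 read 12.37, 12.36, 12.32 and 12.34 at 0 min and 12.35, 12.29, 12.29 and 12.29 at 120 min of ischemia. In the other arm it read 12.33, 12.34, 12.26 and 12.28 at 0 min and 12.25, 12.17, 12.22 and 12.16 at 120 min. The ischemia groups overlap and the ischemia+reperfusion groups do not. The changes were -0.04 ± 0.05 and -0.11 ± 0.05 (SE; limma, adjusted p = 0.61 and 0.25). Psmb7 read 12.22, 12.16, 12.09 and 12.16 at 0 min and 12.06, 12.05, 12.002 and 12.04 at 120 min of ischemia. Its groups do not overlap, and its change of -0.12 ± 0.05 did not pass (limma, adjusted p = 0.15).

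None of the 3 immunoproteasome subunits was called in any of the 13 comparisons. Psmb8 (LMP7) read 7.88, 7.83, 8.09 and 7.82 at 0 min and 8.02, 7.96, 8.08 and 8.18 at 120 min of ischemia, which overlap. In the ischemia+reperfusion arm it read 7.75, 7.90, 8.04 and 8.30 at 0 min and 7.57, 7.996, 7.16 and 7.61 at 60 min. The 60 min change was -0.41 ± 0.13 (SE; limma, adjusted p = 0.099), but -0.04 in preparation 1 and -0.78 in preparation 2. Psmb9 (LMP2) was the dimmest member, and its 4 arrays spread most at 30 min of ischemia+reperfusion, where they read 6.85, 7.23, 6.40 and 7.48. Its change there was -0.54 ± 0.21 (SE; limma, adjusted p = 0.28). Psmb10 (MECL-1) read 8.20, 8.38, 8.41 and 8.13 at 0 min and 8.27, 8.36, 8.35 and 8.27 at 120 min of ischemia, which overlap. Its differences from 0 min were -0.21 to 0.03 over both arms, with an SE of 0.11. The promoter of Psmb10 with its 3 interferon element cores is printed above.

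**Figure D3:**
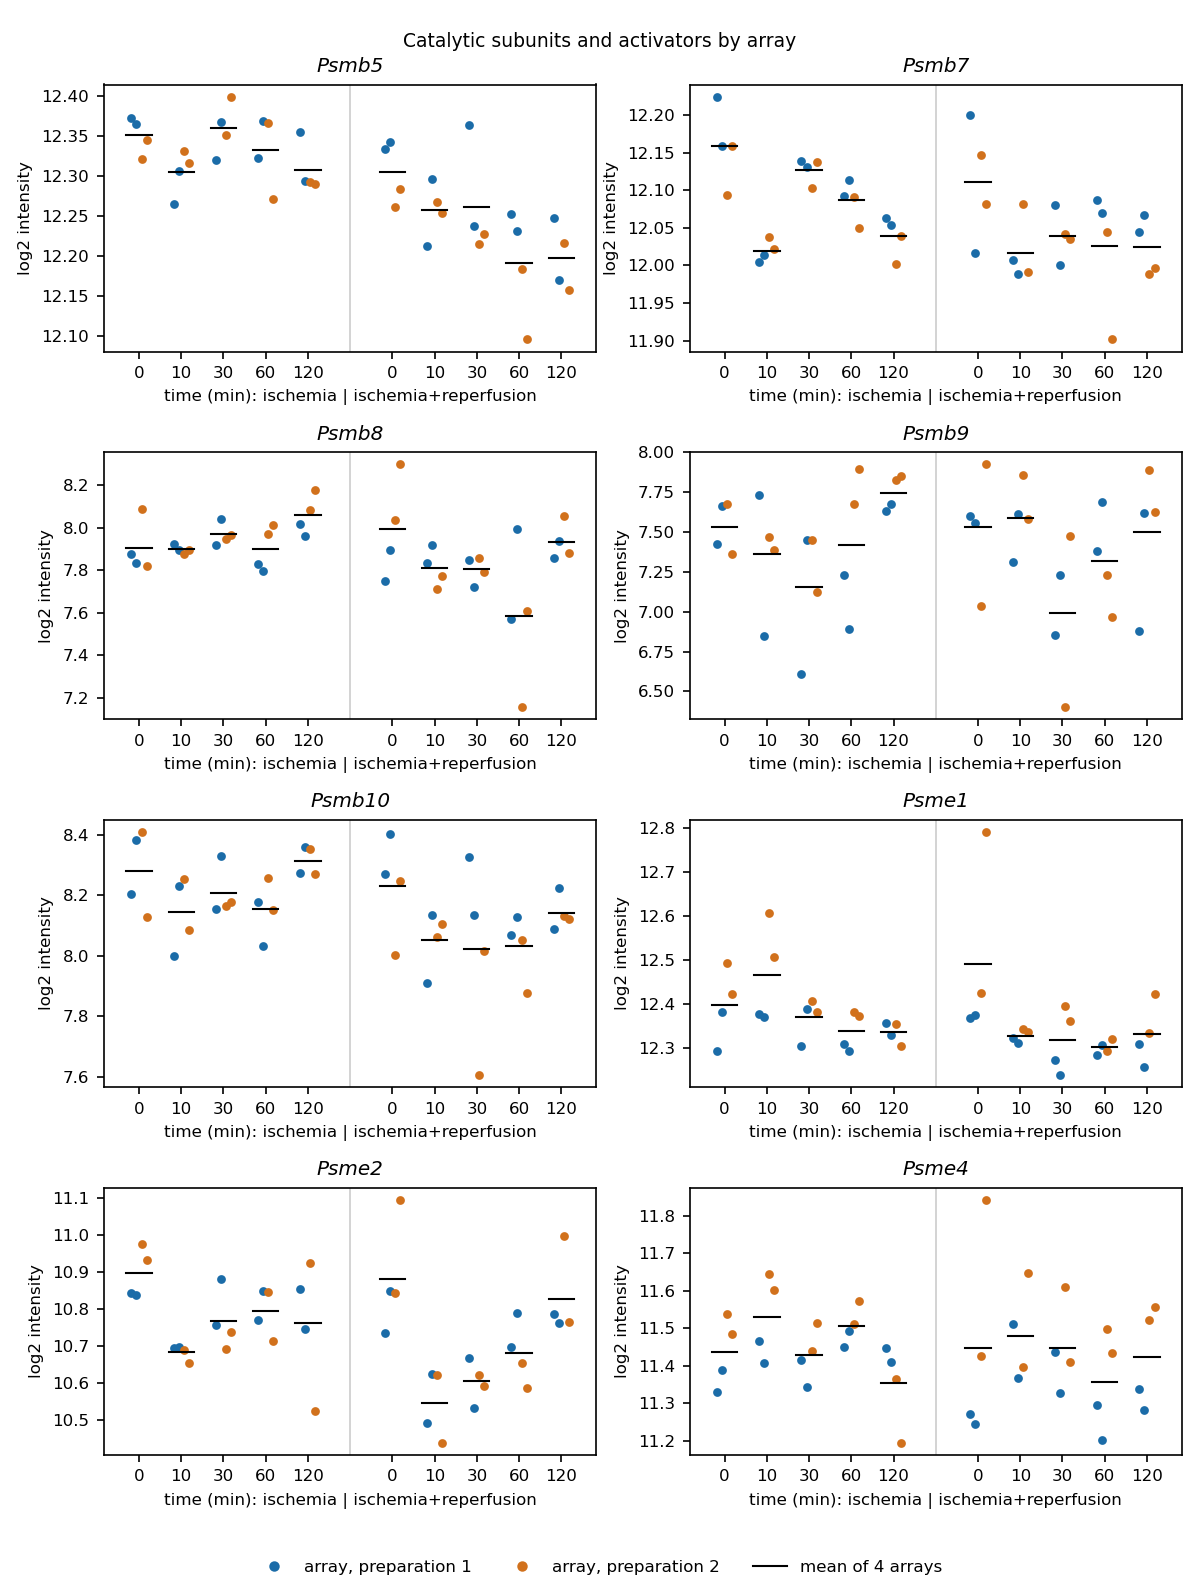
Log2 intensity of 5 catalytic subunits and 3 activators for each array against labelled time in both arms, each panel on its own axis. Points are arrays coloured by preparation and short lines are means of 4 arrays; the spread of Psmb8 and Psmb9 within a group (up to 0.34 and 0.47 SD) is wider than that of Psmb5 and Psmb7 (up to 0.07 and 0.08 SD).

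Psmc5, an ATPase of the base, was the one member called in more than 1 comparison with 0 min. At 0 min of ischemia its arrays read 11.61, 11.53, 11.57 and 11.50. At 120 min they read 11.33, 11.25, 11.05 and 11.35. Every later array of the ischemia arm was below every 0 min array. The 120 min change was -0.30 ± 0.06 (SE, n = 2 preparations; limma, adjusted p = 0.011), a ratio of 0.810, with -0.28 and -0.33 in the preparations. At 10, 30 and 60 min the changes were -0.23, -0.16 and -0.17 (limma, adjusted p = 0.066, 0.23 and 0.23).

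In the ischemia+reperfusion arm Psmc5 read 11.57, 11.52, 11.51 and 11.54 at 0 min and 11.28, 11.23, 11.19 and 11.30 at 120 min. The 60 min arrays read 11.34, 11.39, 11.25 and 11.20. Here too every later array was below every 0 min array. The changes were -0.24 ± 0.06 at 60 min and -0.28 ± 0.06 at 120 min (SE; limma, adjusted p = 0.042 and 0.020). The arms differed by -0.09 to 0.01 at the 5 times, and the interaction of arm and time had an adjusted p of 0.89 (limma F test). Both 120 min calls held on leaving out each of the 40 arrays in turn (adjusted p of at most 0.044 in ischemia and 0.036 in ischemia+reperfusion, limma). The 60 min call was lost in 11 of 40. In other settings of the processing, the 120 min call of ischemia+reperfusion was lost in 3 of 9 (limma, adjusted p up to 0.085). Those were the deposited scale and the settings that left out several deviating arrays at once.

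All 6 ATPase genes were below 0 min in each comparison of the ischemia+reperfusion arm. In the ischemia arm 5 of 6 were, with Psmc6 the exception described above. Of the core genes, 14 to 16 of 16 were below 0 min in ischemia+reperfusion and 11 to 15 in ischemia. Of all probe sets tested, 45.6% to 48.2% were above 0 min in ischemia+reperfusion and 49.9% to 50.7% in ischemia. Of the ATPases, Psmc5 was the only one called on its brightest probe set. The second probe set of Psmc6 passed at 120 min of ischemia, as given above. Psmc1 read 11.54, 11.63, 11.46 and 11.52 at 0 min and 11.28, 11.33, 11.29 and 11.40 at 120 min of ischemia, without overlap (-0.21 ± 0.07 SE; limma, adjusted p = 0.082). Psmc3 read 11.84, 11.88, 11.84 and 11.78 at 0 min and 11.73, 11.55, 11.68 and 11.60 at 120 min of ischemia+reperfusion, without overlap (-0.20 ± 0.06 SE; limma, adjusted p = 0.087). Psmc2 was below its 0 min arrays without overlap at all 4 times of ischemia+reperfusion, by -0.15 to -0.10. Its lowest adjusted p there was 0.13 (limma), at 60 min. These 4 comparisons share their 0 min arrays, and the share of all probe sets without overlap in them is not given here. The differences of Psmc4 were -0.13 to -0.03 over both arms.

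The symbols Psmd5, Psmd9 and Psmd10 (gankyrin) belong to chaperones that help to assemble the base and leave before the particle is complete. Psmd10 was the only one of the 46 genes that was above 0 min in all 8 comparisons. It read 9.28, 9.39, 9.29 and 9.36 at 0 min and 9.61, 9.63, 9.43 and 9.45 at 120 min of ischemia. The groups do not overlap, and the change was 0.20 ± 0.06 (SE; limma, adjusted p = 0.041), a ratio of 1.15. At 120 min of ischemia+reperfusion it read 9.56, 9.52, 9.53 and 9.52, above every 0 min array of that arm (9.35, 9.40, 9.26 and 9.38), with a change of 0.18 ± 0.06 (SE; limma, adjusted p = 0.078). The ischemia call was lost without the preparation block (adjusted p = 0.082), with each array centred on its median (0.19), and on leaving out any of 12 of the 40 arrays (limma). On the deposited scale the change was -0.04, not called, and its sign was thus turned. The median change of all probe sets on that scale was -0.22, so Psmd10 still lay above it. The differences of Psmd9 from 0 min were 0.10 to 0.15 in ischemia and -0.02 to 0.08 in ischemia+reperfusion, and none was called.

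Psmd5 differed between the arms. In ischemia+reperfusion it read 10.64, 10.79, 10.55 and 10.56 at 0 min, 10.97, 11.11, 10.96 and 11.36 at 30 min and 11.09, 11.13, 11.08 and 10.93 at 60 min. In ischemia it read 10.71, 10.70, 10.50 and 10.55 at 0 min, 10.53, 10.56, 10.57 and 10.49 at 30 min and 10.62, 10.71, 10.57 and 10.49 at 60 min. At 30 and 60 min every ischemia+reperfusion array was above every ischemia array and above every 0 min array of its own arm. The arms differed by 0.57 ± 0.12 at 30 min and 0.46 ± 0.12 at 60 min (SE; limma, adjusted p = 0.057 and 0.046). The second of these was 1 of 3 members called at 60 min (6.52%), where 5.38% of all probe sets were called, and was lost in 16 of 40 analyses that each left out 1 array. Against its own 0 min the difference was 0.47 at 30 min and 0.42 at 60 min (limma, adjusted p = 0.10 and 0.062), and the interaction of arm and time was not called (limma F test, adjusted p = 0.37).

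At 120 min Psmd5 read 10.50, 10.66, 10.62 and 11.04 in ischemia and 10.90, 11.01, 10.57 and 10.62 in ischemia+reperfusion. The fourth ischemia array was the high one of its group, and both ischemia+reperfusion arrays of preparation 2 were low. By all probe sets the fourth ischemia array lay nearer to 60 min of ischemia+reperfusion than to its own group (a gap in correlation of 0.198), and the third ischemia+reperfusion array nearer to 120 min of ischemia (a gap of 0.298). The third ischemia array and the second ischemia+reperfusion array also lay nearest to the other arm at 120 min, by gaps of 0.014 and 0.032. Hspa1a, the inducible heat shock protein 70, read 13.15 on the fourth ischemia array and 9.62 to 10.19 on the other 3. It read 9.75 on the third ischemia+reperfusion array and 12.996 to 13.25 on the other 3. Whether the fourth ischemia and the third ischemia+reperfusion array were exchanged was not tested. The arms differed in Psmd5 by 0.07 ± 0.12 at 120 min (SE; limma, adjusted p = 0.98), 0.37 in preparation 1 and -0.23 in preparation 2.

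**Figure D4:**
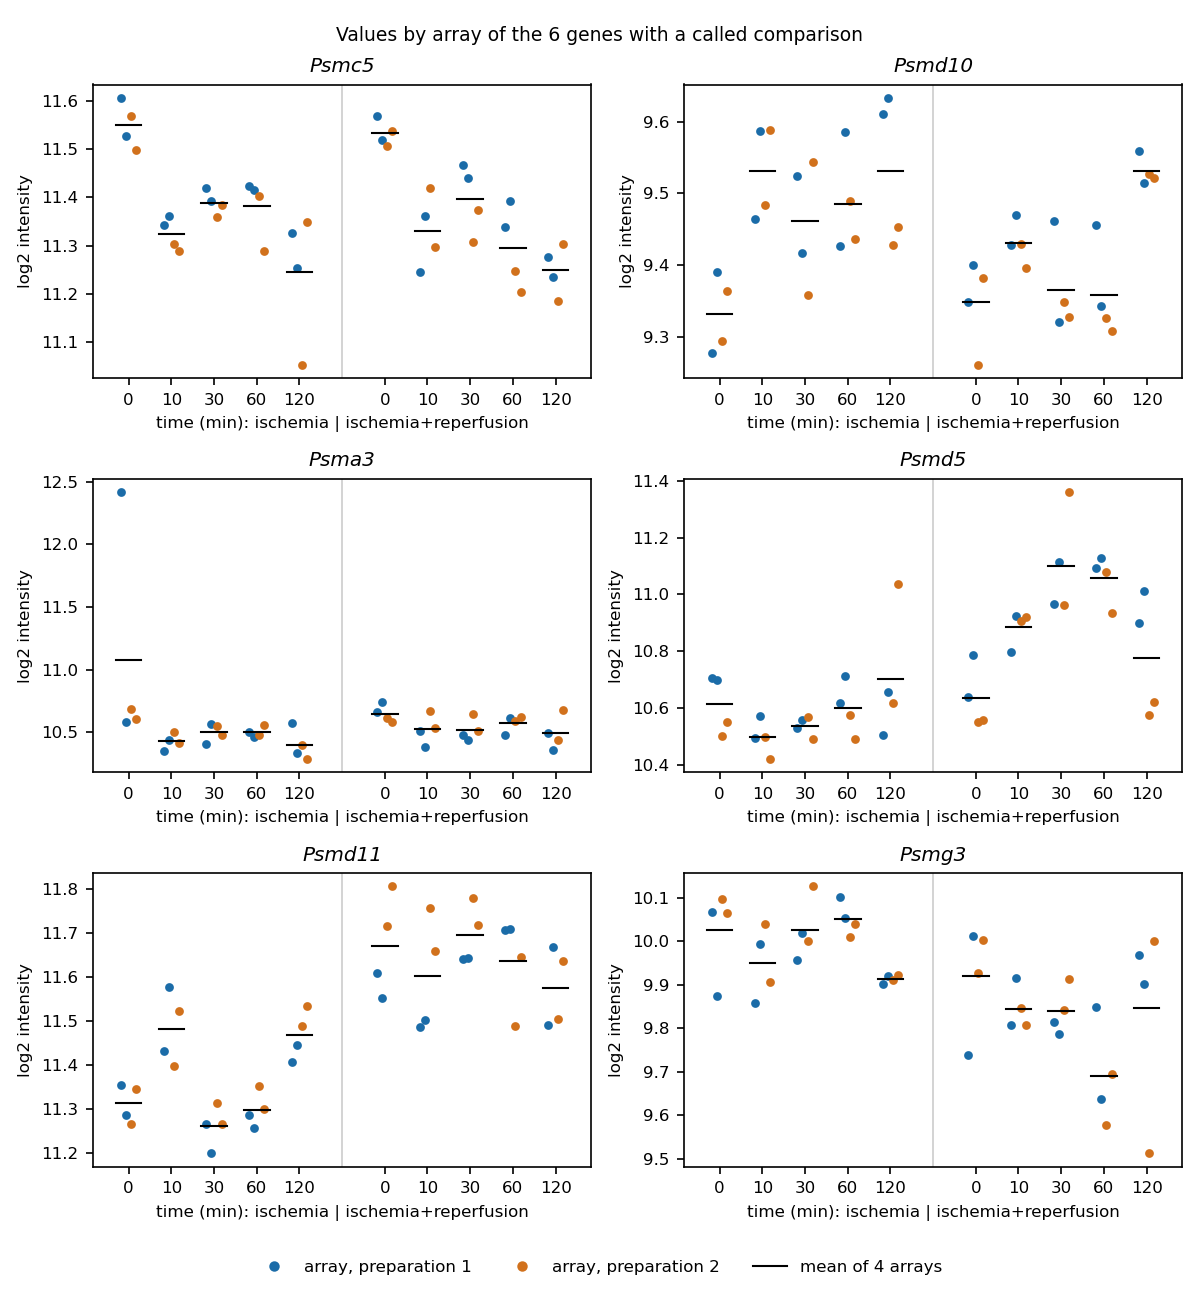
Log2 intensity of the 6 genes with a call, for each array against labelled time in both arms, each panel on its own axis. Points are arrays coloured by preparation and short lines are means of 4 arrays; Psmc5 is below its 0 min arrays at every later time of both arms, Psmd5 is high at 30 and 60 min of ischemia+reperfusion, and Psma3 has 1 array at 12.42.

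Psmd11, a lid subunit that holds lid and core together, was called between the arms at 30 and 60 min. At 30 min it read 11.27, 11.20, 11.31 and 11.27 in ischemia and 11.64, 11.64, 11.78 and 11.72 in ischemia+reperfusion. At 60 min it read 11.29, 11.26, 11.35 and 11.30 and 11.71, 11.71, 11.49 and 11.65. The arms did not overlap at either time. The differences were 0.43 ± 0.08 and 0.34 ± 0.08 (SE; limma, adjusted p = 0.046 and 0.038). The calls were lost in 19 and 6 of 40 analyses that each left out 1 array. At 30 min it was the 1 member called, where 0.532% of all probe sets were. The arms differed already at 0 min, by 0.36 ± 0.08 (SE; limma, adjusted p = 0.078), with 11.36, 11.29, 11.27 and 11.35 against 11.61, 11.55, 11.72 and 11.81.

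The second tested probe set of Psmd11 did not show this difference. It read 11.25, 11.38, 11.42 and 11.33 in ischemia and 11.32, 11.34, 11.48 and 11.56 in ischemia+reperfusion at 30 min, which overlap. Its arm differences were 0.00 at 0 min, 0.08 at 30 min and 0.02 at 60 min (limma, adjusted p = 0.60 and 0.89 at 30 and 60 min). The probe sets of this gene disagree, and which of them reads Psmd11 was not tested.

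**Figure D5:**
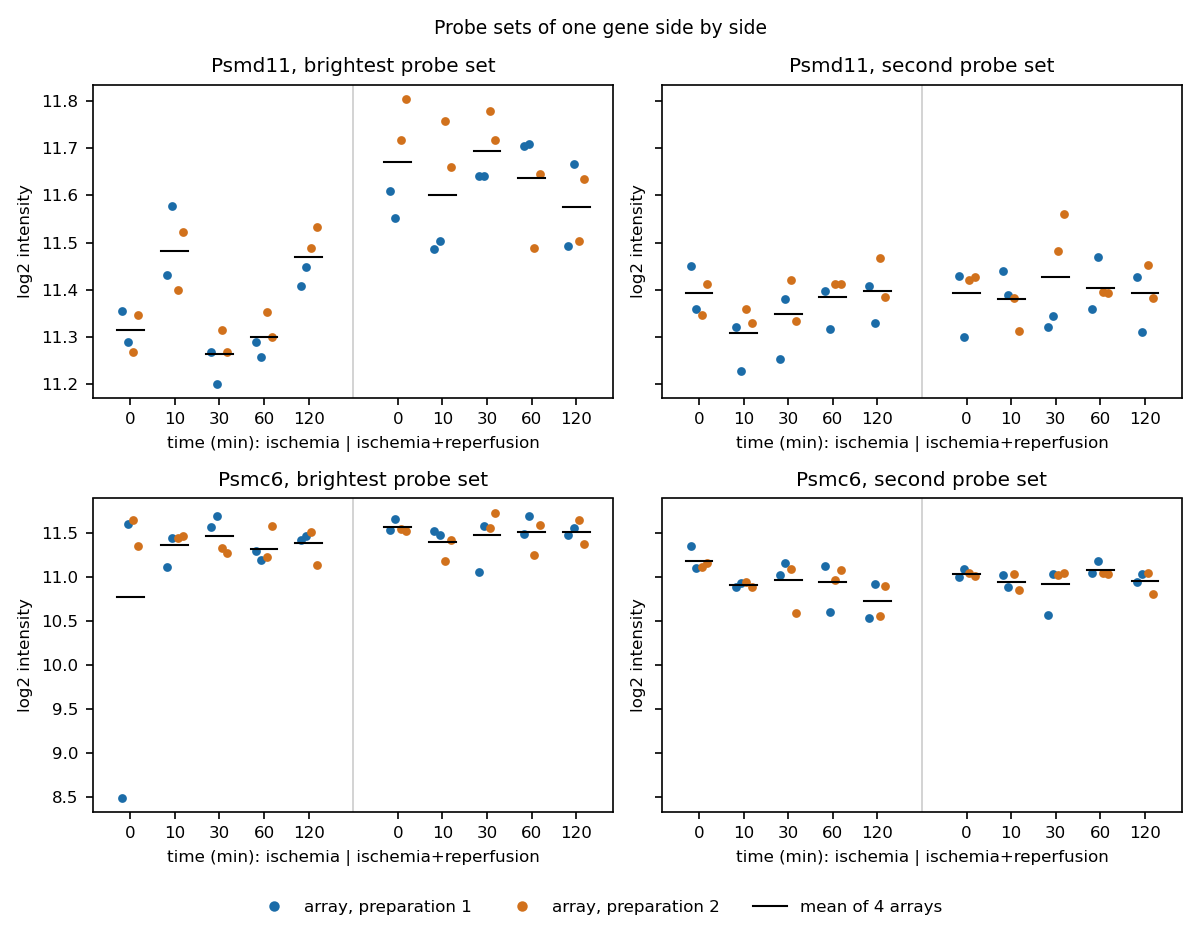
Log2 intensity of the brightest (left) and second brightest (right) probe set of Psmd11 (top) and Psmc6 (bottom), for each array against labelled time in both arms. Points are arrays coloured by preparation and short lines are means of 4 arrays; the Psmd11 arms are apart at 0, 30 and 60 min on the left and overlap on the right, and Psmc6 has 1 array at 8.50 on the left.

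The other lid and base genes of the Psmd series were not called on their brightest probe sets. Psmd6, a lid subunit, was 1 of 2 members, with Psmc5, that lay below 0 min without overlap in all 8 comparisons (4.35%), as did 0.0698% of all probe sets tested. It read 11.92, 11.87, 11.92 and 11.86 at 0 min and 11.72, 11.72, 11.73 and 11.83 at 120 min of ischemia. In the other arm it read 11.89, 11.91, 11.90 and 11.94 at 0 min and 11.79, 11.74, 11.68 and 11.81 at 120 min. Both 120 min groups lie below the 0 min arrays of their arm. The changes were -0.15 ± 0.05 and -0.16 ± 0.05 (SE; limma, adjusted p = 0.072 and 0.076).

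Psmd1, the largest scaffold of the base, read 9.95, 9.77, 9.71 and 9.83 at 0 min and 9.93, 10.24, 9.96 and 10.18 at 10 min of ischemia. In the other arm it read 10.09, 10.26, 10.06 and 10.36 at 0 min and 9.86, 10.02, 9.80 and 10.00 at 10 min. The groups overlap in the first arm and not in the second, and the differences from 0 min were 0.26 ± 0.09 and -0.27 ± 0.09 (SE; limma, adjusted p = 0.13 and 0.24). The difference between these changes was -0.54 ± 0.12 (SE; limma, adjusted p = 0.16), and the arms stood 0.38 apart at 0 min.

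Psmd8, a lid subunit, read 12.03, 12.05, 12.14 and 12.25 at 0 min and 11.80, 11.91, 11.58 and 12.17 at 120 min of ischemia. The groups overlap through the fourth array, and the change was -0.25 ± 0.08 (SE; limma, adjusted p = 0.057). Psmd14, the lid's deubiquitinating enzyme, differed from 0 min by -0.11 at 120 min of ischemia on its brightest probe set, by -0.20 on the second and by -0.55 on the dimmest. The dimmest read 9.55, 9.62, 9.38 and 9.58 at 0 min and 9.42, 8.41, 9.49 and 8.62 at 120 min, which overlap. Its difference passed the test (limma, adjusted p = 0.0032), but the second duplicate of each preparation was low and the first lay within the range at 0 min.

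Of the activators, Psme1 and Psme2 form the interferon-inducible PA28 cap and Psme4 is PA200; none was called in any comparison. Psme2 read 10.73, 10.85, 10.84 and 11.10 at 0 min and 10.49, 10.63, 10.62 and 10.44 at 10 min of ischemia+reperfusion. The groups do not overlap, and the change was -0.34 ± 0.08 (SE; limma, adjusted p = 0.12). At 120 min the change was -0.05 (limma, adjusted p = 0.74). Psme1 read 12.37, 12.38, 12.42 and 12.79 at 0 min of that arm, and its changes there were -0.19 to -0.16, or -0.10 to -0.07 without the fourth of these arrays. The differences of Psme4 from 0 min were -0.09 to 0.09 over both arms.

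Among the 5 inhibitor and assembly genes, Psmg3, a chaperone of the core particle, was called once, between the arms at 60 min. It read 10.10, 10.05, 10.01 and 10.04 in ischemia and 9.85, 9.64, 9.58 and 9.69 in ischemia+reperfusion. The groups do not overlap, and the difference was -0.36 ± 0.08 (SE; limma, adjusted p = 0.026), a ratio of 0.779. It kept the call in 38 of 40 analyses that each left out 1 array (not without replicate 2 at 60 min or replicate 4 at 120 min of ischemia+reperfusion), and lost it on the deposited scale (-0.14, adjusted p = 0.51, limma). At 120 min the third array of ischemia+reperfusion read 9.51 and the other 3 read 9.90 to 10.00, and the arms differed by -0.07. Psmg1 was below 0 min in all 8 comparisons (-0.18 to -0.09) and Psmg4 in 2 of 8. The differences of Psmf1, an inhibitor of the core, were -0.18 to 0.03. Of the 2 non-subunits, Psmc3ip, a recombination cofactor, differed by -0.34 at 120 min of ischemia, without a call.

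Between the arms at 0, 10 and 120 min limma called 0 of 46, with 0.333%, 0% and 0% of all probe sets called. At an unadjusted p under 0.05 there were 4, 2 and 0 members (8.70%, 4.35% and 0%), against 18.2%, 9.99% and 7.16% of all probe sets. The interaction of arm and time was called for 0 of 46 members and for 0.00537% of all probe sets (limma F test), and 3 members (6.52%), all regulatory, had an unadjusted p under 0.05, against 11.3% of all probe sets. At 120 min the 95% interval of the arm difference lay within 0.5 log2 units of 0 for 43 of 46 genes.

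Genes around the proteasome were counted from 6 lists at 120 min. Of all probe sets tested, 6.45% rose and 6.48% fell at that time of ischemia, and 7.17% were called in ischemia+reperfusion. Of 25 proteasome partners tested, 1 rose in ischemia: Adrm1, a ubiquitin receptor of the base, by 0.31 ± 0.08 (SE; limma, adjusted p = 0.025). Of 15 genes of the transcriptional control of proteasome genes, 2 rose, Maff by 1.66 and Mafg by 0.41, small Maf proteins that pair with Nrf1 and Nrf2 (limma, adjusted p = 0.024 for each). Of 26 ubiquitin, E1 and E2 genes, 1 rose, Ube2e2 by 0.37. None of these 3 lists had a call at 120 min of ischemia+reperfusion.

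Of 27 muscle and stress ubiquitin ligases, 2 rose and 2 fell in ischemia, where 6.45% of all probe sets rose and 6.48% fell. Xiap, an inhibitor of caspases, changed by -0.80 and Siah1 by -0.46, while Birc3 changed by 0.93 and Cblb by 0.47. In ischemia+reperfusion, where 7.17% of all probe sets were called, Cblb (0.62) and Smurf1 (0.31) rose and Xiap (-0.33) fell. Of 16 antigen presentation partners of the immunoproteasome, 4 rose in ischemia, Irf2 (0.55), B2m (0.22), Ifngr2 (1.70) and Irf8 (0.39). Irf9 (-0.28) fell, and none was called in ischemia+reperfusion. Irf2 and Irf8 are interferon regulatory factors, and B2m is the light chain of class I molecules. Of 9 genes of aggregate handling, none was called by limma in either arm. Between the arms at 120 min no gene of the 6 lists was called by limma, where 0% of all probe sets were called. The median change at 120 min of ischemia was 0.13 over the antigen presentation list and -0.01 to 0.06 over the other lists, against 0.00 over all probe sets tested.

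Of the markers counted with them, 15 of 15 cardiomyocyte genes on the array passed the filter, and their summed intensity ran from 105878 to 165327 over the arrays. All marker sums given here were taken on the deposited intensities, before normalization. On that scale the median change of all probe sets at 120 min was -0.22 in ischemia and -0.12 in ischemia+reperfusion. The part of this shift in the sums was not tested. In ischemia the cardiomyocyte sum ran from 143722 to 165327 at 0 min and from 109759 to 140382 at 120 min, without overlap. In ischemia+reperfusion it ran from 123857 to 134710 at 0 min and from 105878 to 130644 at 120 min, which overlap. At 120 min of ischemia 5 of 11 endothelial markers rose (Pecam1 by 1.04) and 4 of 16 fibroblast markers rose (Ddr2 by 0.70). Of all probe sets, 6.45% rose there. Limma called 0 of 13 macrophage markers, against 12.9% of all probe sets. The summed intensity of 12 endothelial markers ran from 3553 to 5525 at 0 min and from 3713 to 5952 at 120 min of ischemia, and that of 16 fibroblast markers from 70713 to 85993 and from 59134 to 76792. The 3 erythroid markers on the array were below the filter. The part of these cells in the proteasome values was not tested. By the correlation of centred values, 21 of 40 arrays lay nearest to a group other than their own, 7 of them by a gap over 0.1.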

How the data were processed

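RNA of 40 samples was measured on Affymetrix rat arrays. Per the labels' protocols, RNA was spin-column extracted and amplified to biotinylated cRNA. The authors deposited 1 linear intensity per probe set and array. Values ran from -1725 to 17404 and 15.8% were below 0, as after a subtraction of background. Software and scaling: not given in the sources used here. Array medians ran from 101 to 171.

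The deposited intensities were quantile-normalized, floored at 0 and converted to log2(value + 16), which understates changes of dim features. Of 31042 probe sets, the 18625 whose mean exceeded the 40th percentile (6.48) were tested. Duplicates were averaged, and the 10 groups were fitted with limma 3.58.1 in R 4.3.3, with preparation as an additive block (residual degrees of freedom 9, prior 2.27). P-values are two-sided, with Benjamini-Hochberg adjustment per comparison. The number of arrays limits the precision.

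The labels mark a preparation shared by all groups, and the preparation differences of 2 groups correlated above 0.1 in 34 of 45 pairs (median 0.18). Genes were named through the platform annotation, from probe sets with 1 symbol. The named genes were all members called, the catalytic subunits, the activators and up to 4 called genes of a list with the smallest adjusted p. Psmc6, Psmc1 to Psmc4, Psmd1, Psmd6, Psmd8, Psmd9, Psmd14, Psmg1, Psmg4, Psmf1, Psmc3ip, Irf9, Pecam1, Ddr2 and Hspa1a were added after their values were seen. The members, lists and tests were chosen with earlier results of these data known. The fit was tested on simulated data. Alternatives were no block, arrays as samples, other scalings, another offset, no filter, the dimmest probe set and arrays left out.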

Additional observations from a re-analysis of the deposited data

Results flagged for a closer look

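Arrays that stood far from the other 3 of their group were sought for 20 named members and both class medians, in 220 sets of 4 arrays. In 19 of them the gap of 1 array to its neighbour, as a share of the range, exceeded Dixon's 95% critical value for 4 samples, and chance alone gives about 1 in 20. Both wide gaps were of 1 array: Psmc6 read 8.50 in replicate 1 of ischemia 0 min, where the others read 11.35 to 11.64, and Psma3 read 12.42 in the same replicate, where the others read 10.58 to 10.69. Psme1 read 12.79 in replicate 4 of ischemia+reperfusion 0 min (others 12.37 to 12.42), and Psme2 read 10.998 in replicate 3 at 120 min of that arm (others 10.76 to 10.79). Psmg3 read 9.87 in replicate 2 of ischemia 0 min (others 10.06 to 10.10). Psmb10 read 8.33 in replicate 2 of ischemia 30 min (others 8.15 to 8.18), and Psmd5 10.80 in replicate 1 of ischemia+reperfusion 10 min (others 10.91 to 10.92). Psmc5 read 11.29 in replicate 4 of ischemia 60 min (others 11.40 to 11.42). Psmc6 also read 11.11 in replicate 1 of ischemia 10 min (others 11.44 to 11.47) and 11.66 in replicate 2 of ischemia+reperfusion 0 min (others 11.52 to 11.54). Psmc1 read 11.50 in replicate 2 of ischemia 30 min (others 11.39 to 11.41). Psmd1 read 9.61 in replicate 4 of ischemia 60 min (others 9.81 to 9.83). Psmd6 read 11.76 in replicate 1 of ischemia 60 min (others 11.80 to 11.81) and 11.83 in replicate 4 of ischemia 120 min (others 11.72 to 11.73). Psmd8 read 12.05 in replicate 2 of ischemia 60 min (others 11.73 to 11.76) and 11.51 in replicate 3 of ischemia+reperfusion 120 min (others 11.87 to 11.91). Psmb5 read 12.35 in replicate 1 of ischemia 120 min (others 12.29) and 12.36 in replicate 1 of ischemia+reperfusion 30 min (others 12.21 to 12.24). The core median deviation was 0.015 in replicate 2 of ischemia+reperfusion 60 min (others -0.029 to -0.027). No member's interaction of arm and time passed the threshold.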

How the results depend on the processing

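Counts of members called that moved by over 1.5 times are given here, each with its main value in parentheses. The share of all probe sets called is given for comparisons under the other scalings only. With every array a sample and duplicates as a random block, the counts were 8 at 10 min of ischemia (0), 9 at 120 min (3), 2 at 10 min (0), 2 at 30 min (0), 7 at 60 min (1) and 5 at 120 min of ischemia+reperfusion (1), 1, 2 and 5 between the arms at 0, 30 and 60 min (0, 1 and 3), and 8 and 5 for the F tests over time (0 and 0). With no replicate block they were 0 at 60 min of ischemia+reperfusion (1), and 0 and 1 between the arms at 30 and 60 min (1 and 3). On the deposited scale they were 10 at 120 min of ischemia (3), all lower, where 18.3% of all probe sets were called (12.9%). On that scale they were 0 at 60 and 120 min of ischemia+reperfusion (1 and 1). There 0.843% and 1.64% of all probe sets were called (4.69% and 7.17%). Centred on array medians they were 2 at 120 min of ischemia+reperfusion (1), where 8.98% of all probe sets were called (7.17%). They were 2 between the arms at 30 min (1), where 0.687% were called (0.532%), and 1 for the F test in ischemia+reperfusion (0). Between the arms at 60 min the count was 3 on each scale. In the main fit 2 were higher and 1 lower, and 5.38% of all probe sets were called. On the deposited scale 3 were higher (11.7% of all called), and with centred arrays 3 were lower (7.34%). None of the 3 main calls was reversed. With an offset of 64 the counts were 2 between the arms at 30 min (1) and 1 for the F test in ischemia (0). With no filter they were 4 and 6 at 10 and 120 min of ischemia (0 and 3), 2 and 5 at 60 and 120 min of ischemia+reperfusion (1 and 1) and 2 for each F test (0). With the dimmest probe set they were 1 at 10 min of ischemia (0), 2 at 120 min of ischemia+reperfusion (1) and 1 for each F test (0). Without the pair of deviating 120 min arrays they were 6 at 120 min of ischemia (3), 0 at 120 min of ischemia+reperfusion (1) and 2 between the arms at 30 min (1). Without the 8 arrays that stand apart (chosen after seeing the data) they were 1 at 10 and 30 min of ischemia+reperfusion (0 and 0), 0 at 120 min (1) and 1 for each F test (0). The cause was not tested. Leaving out 1 array gave 0 to 1 at 10 min and 1 to 6 at 120 min of ischemia, 0 to 1, 0 to 2 and 1 to 3 at 10, 60 and 120 min of ischemia+reperfusion, 0 to 1, 0 to 2 and 0 to 3 between the arms at 0, 30 and 60 min, and 0 to 2 and 0 to 1 for the F tests. The 6 at 120 min came without ischemia 120 min replicate 4 and the 1 without ischemia+reperfusion 10 min replicate 4. The 3 at 120 min of ischemia+reperfusion came without replicate 4 of its 0 min.

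Of the 9 calls, that of Psmc5 at 120 min of ischemia held in all 9 other settings and 40 of 40 leave-outs. Of the 9 settings, the call was lost in 1 for Psmg3, 2 for Psma3, and 3 each for Psmc5 at 120 min of ischemia+reperfusion, Psmd5 and Psmd11 at 60 min. It was lost in 4 for Psmc5 at 60 min (adjusted p up to 0.38) and in 4 for Psmd11 at 30 min. Psmd10 lost it in 3 and reversed in 1, at -0.040 on the deposited scale, where the median of all probe sets was -0.22. With no replicate block, the calls of Psmd10, of Psmc5 at 60 min, of Psmd11 at both times and of Psmd5 were lost (adjusted p of 0.055 to 0.092). The leave-outs took the call of Psmd5 in 16 of 40, and of Psmd11 in 19 (30 min) and 6 (60 min).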
